A study of Mus musculus with 3 samples.

Results

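The resting expression profile of RAW 264.7, a mouse macrophage cell line, was read from the 1 library of untreated cells in this series. A gene was counted as expressed where its deposited level in that library was at least 1 FPKM (fragments per kilobase of exon, scaled to the counted reads of the library, a level per length that can be set side by side between genes). This held for 10801 of the 46078 genes in the table, which is 23.4% of all genes. The line came from the ascites of a tumor induced by Abelson murine leukemia virus, and the cells were at passage 10 to 15, in DMEM with 10% serum and 1% penicillin and streptomycin, at 37 °C and 5% CO2. The control group (n = 1) had neither agent, the HU group (n = 1) had 0.5 mM hydroxyurea for 12 hours, and the HU_GNC group (n = 1) had the same dose and time of hydroxyurea together with gold nanocages. All 3 groups were the same line, so what is said here holds for 1 cell line in culture and for no tissue macrophage. The summed counts were 14990564 reads in control, 20057329 in HU and 18644333 in HU_GNC.

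Each group was 1 library, so no spread between cultures is known and no level has a replicate check. Intervals given below are exact Poisson or exact binomial (Clopper-Pearson) 95% intervals from read counts. They cover counting error only, since each group is 1 library. Reads copied in amplification cannot be told apart, since the reads carry no molecular identifiers. The treated libraries are quoted only to show whether a level seen at rest was also seen in another library. Of the 10801 expressed genes, 10465 (96.89%) were at or above 1 FPKM in all 3 libraries. The 336 that were not had a median control level of 1.255 FPKM.

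Macrophages are phagocytes of the innate immune system that take up particles, break them down in lysosomes and secrete cytokines and chemokines. Their identity is set by the ETS transcription factor PU.1, which the gene Spi1 encodes, and their survival by signalling from the receptor of colony stimulating factor, which Csf1r encodes. Many of their effector genes belong to families of paralogues, duplicated genes of related sequence, of which a given cell type uses only some members.

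The sequences of 3 sets of genes are shown first, since paralogues and copies can differ much or little in sequence. The first set is the pair of lysozyme genes, which lie side by side on chromosome 10 and encode enzymes that cleave bacterial cell walls. Lyz2 stood at 1452.31 FPKM and Lyz1 at 13.30 FPKM in control. Their 250 bases before the start of the transcript, from the RefSeq promoter table of build GRCm38.p6, were identical at 200 positions, or 80% of the 250. Capitals mark the bases that differ or have no partner in the alignment of the pair, and both genes lie on the minus strand (Lyz2 chr10:117282273-117282522, Lyz1 chr10:117292869-117293118).
Lyz2: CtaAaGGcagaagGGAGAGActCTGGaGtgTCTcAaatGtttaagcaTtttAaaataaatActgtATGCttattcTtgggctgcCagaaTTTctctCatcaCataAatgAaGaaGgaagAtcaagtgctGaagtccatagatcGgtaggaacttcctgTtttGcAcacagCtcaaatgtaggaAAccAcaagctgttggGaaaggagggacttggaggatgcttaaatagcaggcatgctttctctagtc
Lyz1: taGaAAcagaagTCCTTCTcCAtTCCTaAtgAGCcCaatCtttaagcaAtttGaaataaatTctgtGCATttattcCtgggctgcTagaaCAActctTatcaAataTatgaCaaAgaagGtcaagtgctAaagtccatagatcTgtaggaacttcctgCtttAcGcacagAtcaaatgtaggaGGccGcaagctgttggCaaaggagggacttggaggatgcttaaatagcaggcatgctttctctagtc
The differing bases are densest in the distal part, and the bases nearest the start are shared.

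The second set gives promoters of genes at the extremes of the library, namely the macrophage sialomucin gene Cd68 (562.80 FPKM; chr11:69666171-69666420) and a pair of chemokine genes from 1 cluster, Ccl3 (1126.73 FPKM; chr11:83649379-83649628) and Ccl6 (0.11 FPKM; chr11:83593088-83593337). All 3 are on the minus strand and come from the same RefSeq table. Capitals mark GAGGAA, the core of the motif that PU.1 is known to bind, searched on both strands, so that a match on the other strand reads TTCCTC.
Cd68: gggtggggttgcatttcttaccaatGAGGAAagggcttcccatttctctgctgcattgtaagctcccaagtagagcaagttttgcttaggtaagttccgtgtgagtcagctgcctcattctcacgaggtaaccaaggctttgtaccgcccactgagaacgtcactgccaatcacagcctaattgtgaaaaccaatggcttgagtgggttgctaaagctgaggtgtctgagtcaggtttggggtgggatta
Ccl3: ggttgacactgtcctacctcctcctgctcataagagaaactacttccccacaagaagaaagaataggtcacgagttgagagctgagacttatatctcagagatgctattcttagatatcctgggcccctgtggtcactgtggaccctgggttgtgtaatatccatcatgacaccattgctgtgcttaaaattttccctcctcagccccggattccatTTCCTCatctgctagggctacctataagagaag
Ccl6: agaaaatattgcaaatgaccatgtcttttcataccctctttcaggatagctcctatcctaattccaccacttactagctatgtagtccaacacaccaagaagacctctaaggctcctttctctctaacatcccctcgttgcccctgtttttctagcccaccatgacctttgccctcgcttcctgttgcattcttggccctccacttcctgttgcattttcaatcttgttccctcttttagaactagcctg
Cd68 and Ccl3 hold 1 match each and Ccl6 holds 0. The motif is common, with a match in 22.2% of the 16639 protein-coding promoters of that length, and it was in 0 of the 2 lysozyme windows. The promoters of Ccl3 and Ccl6 were identical at 57.6% of 250 positions in their alignment.

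The third set concerns a housekeeping gene and its copy. Ppia encodes cyclophilin A, a protein folding enzyme made in large amounts by most cells, yet the gene stood at only 8.61 FPKM. The first 99 coding bases of Ppia, from its start codon (in capitals), were found letter for letter in the processed pseudogene Gm10123, an intron-less copy, at chr9:96895658-96895756 on the plus strand of mm10, in the GENCODE M21 transcripts.
Ppia and Gm10123: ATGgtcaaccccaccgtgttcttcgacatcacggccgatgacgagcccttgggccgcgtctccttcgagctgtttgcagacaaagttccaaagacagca
Gm10123 stood at 2146.38 FPKM, and the levels of such pairs are described further on.

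**Figure D1:**
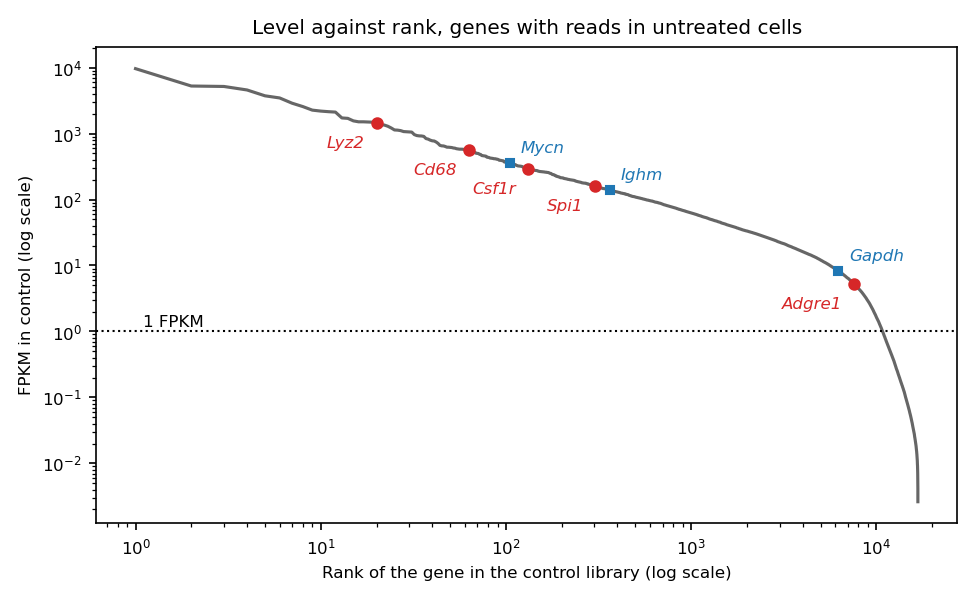
Level in FPKM (log scale) against rank (log scale, rank 1 is the highest level) for the genes with reads in the control library. Red circles are the 5 genes that mark the line and blue squares are Mycn, Ighm and Gapdh. Of the markers, 4 lie above 150 FPKM and Adgre1 lies at 5.24 FPKM. Gapdh lies near it, at a level that is uncertain, as described below for genes with a copy of shared sequence.

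The 5 genes that mark the line were all expressed, over a wide range of levels. Lyz2 stood at 1452.31 FPKM in control, 1360.28 in HU and 1283.23 in HU_GNC, from 27562 reads in control, and took rank 20 of all genes. Cd68 followed at 562.80, 553.27 and 564.99 FPKM in the same order of libraries (rank 63). Csf1r stood at 293.93, 272.08 and 261.34 FPKM (rank 132), and Spi1 at 158.39, 155.53 and 156.03 FPKM (rank 304). These 4 genes were among the 304 highest genes in control, and each held its order of magnitude in the other libraries. Adgre1, which encodes the F4/80 antigen used to stain mouse macrophages, was far lower at 5.24 FPKM (95% counting interval 4.618 to 5.927, 255 reads), with 3.70 in HU and 4.02 in HU_GNC. Its rank was 7597, so that 29.66% of expressed genes lay at or below it. The intervals from the counts allow ranks of 7247 to 7920 for Adgre1 and of 129 to 135 for Csf1r.

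Of 25 macrophage markers in the wider list, 19 (76.0%) were expressed, against 23.4% of all genes and 44.0% of protein-coding genes. Their median over all 25 was 30.3 FPKM, against 0 over all genes. Cd14, the co-receptor for bacterial lipopolysaccharide, stood at 549.54 FPKM, the signalling adaptor Tyrobp at 307.64 and the lysosomal membrane protein gene Laptm5 at 169.89. Mid-level markers were the scavenger receptor Msr1 at 30.27, the pore-forming Mpeg1 at 25.44 and Itgam, the CD11b integrin chain, at 17.96. The value of Itgam is uncertain, since 68.67% of its exonic bases overlap another gene in the annotation. In 4 of the 25 no read was counted in control. The mannose receptor gene Mrc1, the haemoglobin scavenger receptor gene Cd163, the scavenger receptor gene Marco and the efferocytosis receptor gene Mertk were these 4. A count of 3 reads as the upper limit puts them below 0.0314, 0.0446, 0.104 and 0.0462 FPKM. Ccr2, the receptor of inflammatory monocytes, stood at 0.39, 0.45 and 0.46 FPKM.

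Markers of 11 other cell types were largely silent, with 13 of 123 (10.6%) at or above 1 FPKM. That share lies below the 23.4% of all genes and the 44.0% of protein-coding genes. No read was counted for 75 of the 123, beside 63.67% of all genes and 41.45% of protein-coding genes without a read. None of 15 granulocyte and mast cell markers, 14 erythroid and platelet markers, 10 fibroblast markers, 9 epithelial markers and 8 hepatocyte markers reached 1 FPKM, and the 9 epithelial markers had 0 reads in all. The summed levels of these 5 lists were 0.22, 0.69, 0.03, 0 and 0.05 FPKM.

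The 13 expressed markers of other cell types fell into 6 lists, with 6 in the osteoclast list and 1 or 2 in each of the others. Ighm, the constant region gene of the IgM heavy chain, reached 138.83 FPKM in control, 94.88 in HU and 96.95 in HU_GNC. Most of the other B cell markers were without reads. Ms4a1, Pax5, Ebf1, Igll1, Vpreb1, Blk and Rag1 had 0 reads and Cd79a and Cd79b 2 reads each, while the adaptor gene Blnk stood at 3.55 FPKM. Among 13 T and NK cell markers only the kinase gene Lck passed, at 1.62 FPKM, with Cd3e and Cd3g at 0 reads. In RNA of a whole culture, few cells with much of a transcript and many cells with little of it cannot be told apart.

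Among 14 dendritic cell markers, Cd74 and Bst2 were expressed, at 187.26 and 78.58 FPKM, and the defining genes Flt3, Batf3 and Cd209a had 0 reads. The single expressed neural marker was Mbp, the myelin basic protein gene, at 25.86 FPKM, with Sox10 at 0 reads. Flt1, a receptor of vascular endothelial growth factor, was the only 1 of 8 endothelial markers to pass, at 2.90 FPKM. Osteoclasts arise from the same lineage as macrophages, and 6 of 11 osteoclast genes (54.5%) were expressed, a share near the 44.0% of all protein-coding genes. Nfatc1, the factor that drives osteoclast formation, stood at 59.86 FPKM, the tartrate-resistant phosphatase gene Acp5 at 42.91 and Tnfrsf11a, the receptor RANK, at 22.20. The fusion gene Dcstamp stood at 18.04 FPKM, and Mmp9 at 9.61. The subunit gene Atp6v0d2 stood at 1.89 FPKM in control and 0.87 in HU_GNC. Ocstamp lay just below the threshold at 0.99 FPKM, Ctsk, the bone-degrading cathepsin, stood at 0.53, Itgb3 had 1 read, and Calcr and Oscar had 0 reads.

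**Figure D2:**
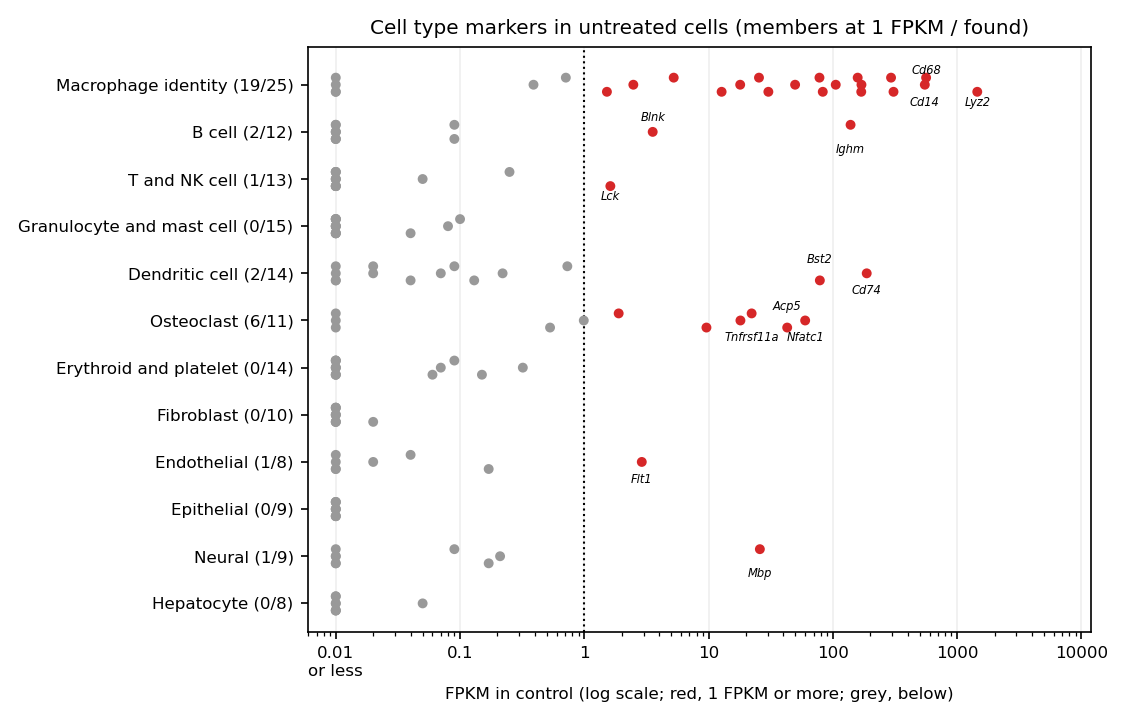
Control FPKM (log scale) of the markers of each cell type, 1 point per gene, with values of 0.01 or less drawn at 0.01, red points at or above 1 FPKM and the count at or above 1 FPKM of the genes found in brackets. The macrophage list has 19 of 25 genes to the right of the line at 1 FPKM, the osteoclast list 6 of 11, and every other list 2 or fewer.

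Across 88 families and functional groups, 348 of 689 listed genes (50.5%) were expressed, which is close to the 44.0% of all protein-coding genes, so the share itself sets these lists little apart. Levels within a family were often unequal. In 35 of the 88, 1 member held at least 80% of the summed FPKM, and in 3 of these, the GATA factors and the arginases among them, that member was itself below 1 FPKM. In 12 families every member found was expressed, and in 6 none was. The member with the highest FPKM was not the one with the most reads in 16 families, because genes of a family differ in length.

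Among surface receptors, Csf1r held 99.99% of the summed FPKM of the 5 class III receptor tyrosine kinases. Kit, Flt3 and Pdgfra had 0 reads and Pdgfrb 2 reads. The ligands of Csf1r were hardly transcribed by the cells themselves, with Csf1 at 0.08 FPKM in control (0.62 in HU, 0.92 in HU_GNC) and Il34 at 0 reads. The TAM receptor genes Axl, Tyro3 and Mertk, which bind dying cells, were all below 0.1 FPKM.

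Of 12 Toll-like receptor genes, which sense microbial products, 7 (58.3%) were expressed, against 44.0% of protein-coding genes. Tlr2, for bacterial lipoproteins, led at 76.36 FPKM in control, 88.78 in HU and 91.36 in HU_GNC. Among the nucleic acid sensors, Tlr7 stood at 20.07, Tlr9 at 12.24 and Tlr13 at 4.95 FPKM, while Tlr3 was at 0.09 and Tlr8 at 0 reads. Tlr4, the lipopolysaccharide receptor, was expressed at 4.97 FPKM, well below its co-receptor Cd14. Tlr5, Tlr11 and Tlr12 had 0 reads.

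The Fc receptors, which bind antibody, were split too. The shared signalling chain Fcer1g stood at 105.48 FPKM and the high-affinity receptor Fcgr1 at 12.73. Fcgr3 had 1 read (0.04 FPKM), with 12.79% of its 50-base words found in another gene, and the inhibitory Fcgr2b stood at 0.55 FPKM. Among C-type lectins, which recognise sugars, Clec4d stood at 73.60, Clec12a at 27.86, Clec5a at 22.67 and Clec4e at 15.81 FPKM, whereas Clec7a, the beta-glucan receptor Dectin, was at 0.53. The fatty acid and lipoprotein receptor gene Cd36 stood at 78.84 FPKM, while the scavenger receptor genes Olr1, Scara3 and Scara5 had 0 reads.

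Integrins are pairs of an alpha and a beta chain that hold cells to matrix and to other cells. Of 18 alpha chain genes 5 (27.8%) were expressed, below the 44.0% of protein-coding genes. They were led by Itga4 at 89.77 and Itga5 at 54.81 FPKM. Itgam stood at 17.96, Itgav at 5.89 and Itgal at 3.92 FPKM, and 13 chains lay below 1 FPKM, including the dendritic cell chain Itgax at 0.13. Of 8 beta chain genes, the leukocyte chain Itgb2 stood at 92.24 FPKM and Itgb1, the partner of Itga4 and Itga5, at 47.62. Itgb7 and Itgb5 followed at 5.91 and 3.93 FPKM.

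A few chemokine ligand genes were among the highest of the library, while most receptor and ligand genes were below the threshold. Of 18 receptor genes 4 (22.2%) were expressed, and the fractalkine receptor gene Cx3cr1 held 84.27% of their summed FPKM at 49.68 FPKM in control, 46.58 in HU and 44.61 in HU_GNC. Cxcr4, Cxcr1 and Cxcr2 had 0 reads. Of 17 CC chemokine genes 5 (29.4%) were expressed, and of 13 CXC chemokine genes 3 (23.1%), all shares below the 44.0% of protein-coding genes. Ccl3 stood at 1126.73 FPKM in control, 838.52 in HU and 864.89 in HU_GNC, and Ccl4 at 436.34, 269.08 and 264.93. Ccl9 stood at 145.27, 117.61 and 116.36 FPKM. All 3 genes were highest in the control library, with no replicate to set that against. Cxcl2, which attracts neutrophils, held 90.21% of the summed FPKM of the CXC genes at 143.55 FPKM, and Cxcl10, a ligand of the expressed receptor gene Cxcr3, stood at 0.44.

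On chromosome 11, the high CC chemokine genes Ccl9, Ccl3 and Ccl4 lay together, with the near-silent Ccl6 among them. In order along the chromosome, Ccl2 (1.41 FPKM) and Ccl7 (0.50) were followed by Ccl11, Ccl12, Ccl8 and Ccl1, all at 0 reads. After a gap from position 82305690 to 83525778 came Ccl5 (0.76), Ccl9 (145.27), Ccl6 (0.11), Ccl3 (1126.73) and Ccl4 (436.34). Ccl6 thus had 3 reads between neighbours with 6631 and 12938. The S100 genes on chromosome 3, for small calcium-binding proteins, also included high and silent members. S100a4 stood at 600.49 FPKM, S100a11 at 287.46, S100a10 at 171.23 and S100a6 at 119.12. The neutrophil and monocyte genes S100a8 and S100a9, which lie near S100a4 and S100a6, had 1 and 0 reads. S100a11 and S100a10 lie apart from these, after a gap from position 90695721 to 93520488.

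**Figure D3:**
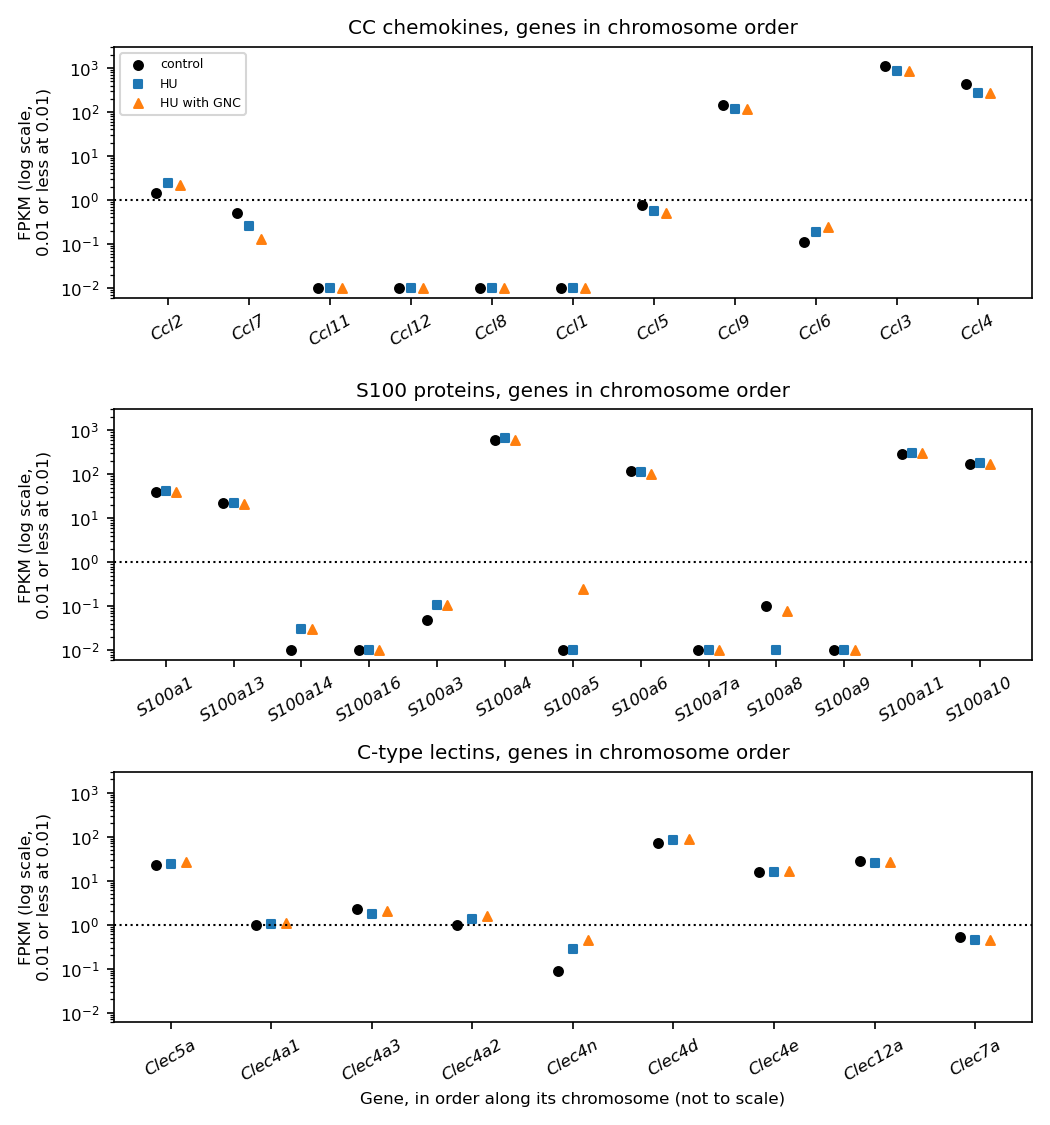
FPKM (log scale, values of 0.01 or less drawn at 0.01) in control (black circles), HU (blue squares) and HU_GNC (orange triangles) for genes in their order along the chromosome, for CC chemokines on chromosome 11, S100 genes on chromosome 3 and C-type lectins on chromosome 6. Genes above 10 FPKM in control stand next to genes at or near 0 in each panel, and the same genes are high in all 3 libraries.

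Of 24 macrophage cytokine genes 11 (45.8%) were expressed, close to the 44.0% of protein-coding genes. Mif, a cytokine that counteracts glucocorticoids, stood at 1360.42 FPKM and Spp1, which encodes osteopontin, at 1108.14. Tnf, the gene of tumor necrosis factor, was high in untreated cells at 464.19 FPKM, with 284.30 in HU and 281.50 in HU_GNC. Grn and Tgfb1 stood at 114.83 and 100.87 FPKM, and the other listed cytokine genes at 16 FPKM or less. Il1b stood at 1.40 FPKM (40 reads) and Il1a at 0.27, and Il6, Il12a, Il12b and Ifnb1 had 0 reads. Il18 stood at 11.77, Csf3 at 16, Il27 at 4.83 and Osm at 2.38 FPKM. Of 25 cytokine receptor chains 15 (60.0%) were expressed, against 44.0% of protein-coding genes. The highest was Csf2ra, which binds the granulocyte-macrophage factor, at 34.71 FPKM. Ifngr2 stood at 33.71, Il2rg at 33.42 and Il10ra at 32.65 FPKM, while Il1r1, Il2ra and Il3ra had 0 reads.

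Kinases that carry such signals inside the cell were expressed to different extents. Of 8 Src family kinase genes 4 (50%) were expressed, near the 44.0% of protein-coding genes. They were led by Lyn at 59.68 FPKM, and Blk and Yes1 had 0 reads. Of 7 Syk and Tec family genes 3 (42.9%) were expressed, near the 44.0% of protein-coding genes. Btk stood at 33.09 FPKM, Tec at 9.43 and Syk at 8.47, while the T cell kinase Zap70 had 0 reads. All 4 JAK kinases were expressed, at 29.66 FPKM for Tyk2, 26.08 for Jak1, 5.76 for Jak2 and 2.95 for Jak3. Stat6, which acts downstream of interleukin-4, led 7 STAT genes at 47.81 FPKM, and Stat4 had 0 reads. All 4 class I PI3K catalytic genes were expressed, and the leukocyte forms Pik3cd (34.65) and Pik3cg (17.60) stood above Pik3cb (6.28) and Pik3ca (5.00). Rac2, the blood cell form of a GTPase that drives membrane ruffles and the oxidase, stood at 298.74 FPKM, above the ubiquitous Rac1 at 56.80. The value of Rac1 is uncertain, since 51.36% of its exonic bases overlap another gene in the annotation. Rac3 stood at 0.52 FPKM in control (10 reads), 4.01 in HU and 4.94 in HU_GNC. Of the cellular kinases related to the viral oncogene of the Abelson virus, Abl2 stood at 15.50 and Abl1 at 7.73 FPKM.

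Of 24 ETS factor genes 15 (62.5%) were expressed, against 44.0% of protein-coding genes. Spi1 held 45.36% of the summed FPKM of the 24. Its closest paralogues Spib and Spic had 2 and 0 reads, and Ets1 had 0 reads while Ets2 stood at 48.85 FPKM. Of the C/EBP factors that act with PU.1, Cebpd stood at 108.32 and Cebpb at 82.94 FPKM, and Cebpa was low at 2.48 (6.53 in HU, 6.98 in HU_GNC). Irf5 stood at 99.78 FPKM and Irf8, the factor of monocyte development, at 15.76. Cbfb, the common partner of the RUNX factors, stood at 61.71 FPKM and Runx1 at 3.95. None of 6 GATA factors and 4 myogenic factors reached 1 FPKM.

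Mycn had the highest level among the members of the listed transcription factor families. Mycn encodes N-Myc, the MYC factor known from the nervous system and from neuroblastoma. It stood at 356.20 FPKM in control (95% counting interval 351.0 to 361.5, 17578 reads, rank 105), 321.77 in HU and 306.73 in HU_GNC. Myc, the form most cells use, stood at 36.38, 23.78 and 24.25 FPKM, and Mycl at 0.64, 0.68 and 0.61. Mycn lay above Myc in each library, held 90.59% of the summed FPKM of the 3 genes in control and was also above Spi1. None of its transcript's 50-base words was found in another gene (0%), and none of its exonic bases overlapped another gene. It lies on the minus strand of chromosome 12, from 12936093 to 12941914 of mm10.

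Of 14 cathepsin genes 8 (57.1%) were expressed, against 44.0% of protein-coding genes, and 6 of these 8 lay above 100 FPKM. The median over all 14, including the 6 below 1 FPKM, was 9.21 FPKM. Cathepsins are the proteases that break down ingested protein. Ctsz stood at 437.01, Ctsd at 317.04, Ctsb at 293.10, Ctsa at 185.19, Ctss at 169.23 and Ctsl at 138.29 FPKM, while the neutrophil gene Ctsg and Ctsh had 0 reads. Their inhibitors Cst3 and Cstb stood at 369.80 and 177.07 FPKM. For the proton pump that acidifies the lysosome, 10 of 15 isoform genes (66.7%) were expressed, against 44.0% of protein-coding genes. The macrophage and osteoclast subunit gene Tcirg1 stood at 74.50 FPKM and the kidney forms Atp6v0a4 and Atp6v1b1 had 0 reads.

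Genes of the oxidase that makes superoxide in phagocytes were expressed, while those of its relatives in other tissues were not. Cyba stood at 212.97, Ncf1 at 119.18, Cybb at 87.45 and Ncf4 at 73.15 FPKM. Nox1 stood at 0.42 FPKM, and Nox3, Nox4, Duox1 and Duox2 had 0 reads. Nos2, the inducible nitric oxide synthase, held 99.87% of its family at 63.88 FPKM in control, 49.21 in HU and 42.75 in HU_GNC. Arg1 and Arg2, the arginases that compete with it for arginine, stood at 0.09 and 0.47 FPKM. Ptgs2, the inducible cyclooxygenase, stood at 11.96 FPKM in control against 39.81 in HU and 42.14 in HU_GNC, and Ptgs1 at 0.98 in control.

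Inflammasomes are complexes that sense danger signals, and they use the adaptor protein ASC, encoded by Pycard, to activate caspase-1. The sensors Nlrp3 (34.04 FPKM) and Aim2 (16.60), the protease Casp1 (21.57) and the pore protein gene Gsdmd (37.67) were expressed. Pycard had 0 reads in control and 1 read in each other library, which puts it below 0.142 FPKM in control. Of its exonic bases, 12.7632% overlapped another gene in the annotation, and none of its 50-base words was found elsewhere (0%).

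Antigen presentation by MHC class II showed a comparable gap. Cd74, the invariant chain that escorts class II molecules, stood at 187.26 FPKM in control, 185.96 in HU and 185.29 in HU_GNC. The class II chains themselves were near 0, with H2-Aa at 1 read, H2-Ab1 at 0 reads and H2-Eb1 at 0.73 FPKM, and the class II transactivator gene Ciita had 0 reads. Among complement genes, the properdin gene Cfp held 90.72% of the summed FPKM at 230.71 FPKM. C1qa, C1qb and C1qc, which tissue macrophages are known to express, had 0 reads. Apoe, for a lipid carrier that macrophages can secrete, stood at 3.94 FPKM.

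The highest genes had many roles. Among protein-coding genes that are neither mitochondrially encoded nor ribosomal, Eef1a1, which delivers aminoacyl-tRNA to the ribosome, led at 5257.06 FPKM, and its muscle and brain paralogue Eef1a2 had 1 read. The ferritin genes Fth1 and Ftl1 stood at 3734.22 and 1556.75 FPKM, the mitochondrial form Ftmt at 0 reads. Actb stood at 1507.06 FPKM with 87.90% of the actins, Cfl1, which severs actin filaments, at 1487.29, and Hsp90ab1 at 1064.62. Further genes among the 30 highest included Cited2, a transcriptional co-regulator, at 662.21 FPKM, Fxyd2, a regulator of the sodium pump, at 743.72, Car2, a carbonic anhydrase, at 580.16, and Odc1, the first enzyme of polyamine synthesis, at 573.17. Of the 30 highest genes, 8 shared no 50-base word with another gene, against 66.56% of the protein-coding expressed genes compared.

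At most steps of glycolysis 1 isoform gene held most of the FPKM. Pkm stood at 2886.23 FPKM and the liver form Pklr at 0 reads. Aldoa stood at 637.15 with 98.58% of the aldolases, and Ldha at 579.22 with Ldhb, Ldhc and Ldhd at 0 reads. Eno1 stood at 114.88 FPKM with 88.89% of the enolases and Pgk1 at 93.49 with Pgk2 at 0 reads. The early steps were shared between isoforms. Hk2 and Hk1 stood at 33.56 and 30.23 FPKM, and Pfkl and Pfkp at 41.30 and 30.74. The glucose transporter gene Slc2a1 led 10 members at 38.85 FPKM, and the insulin-responsive Slc2a4 stood at 0.12. Ckb, the brain form of creatine kinase, held 99.57% of its family at 50.87 FPKM.

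The families that buffer oxidants and metals were also unequal. Gpx1 stood at 283.41 and Gpx4 at 36.60 FPKM. Of 8 glutathione peroxidase genes 5 had 0 reads, beside 41.45% of all protein-coding genes. Sod1 and Sod2 stood at 262.91 and 49.94 FPKM and the secreted Sod3 at 0 reads. The 6 peroxiredoxin genes were all expressed, at 34.34 to 186.18 FPKM, against 44.0% of protein-coding genes expressed. Mt1 stood at 265.23 FPKM in control, 342.54 in HU and 434.45 in HU_GNC, and the brain and skin forms Mt3 and Mt4 had 0 reads.

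**Figure D4:**
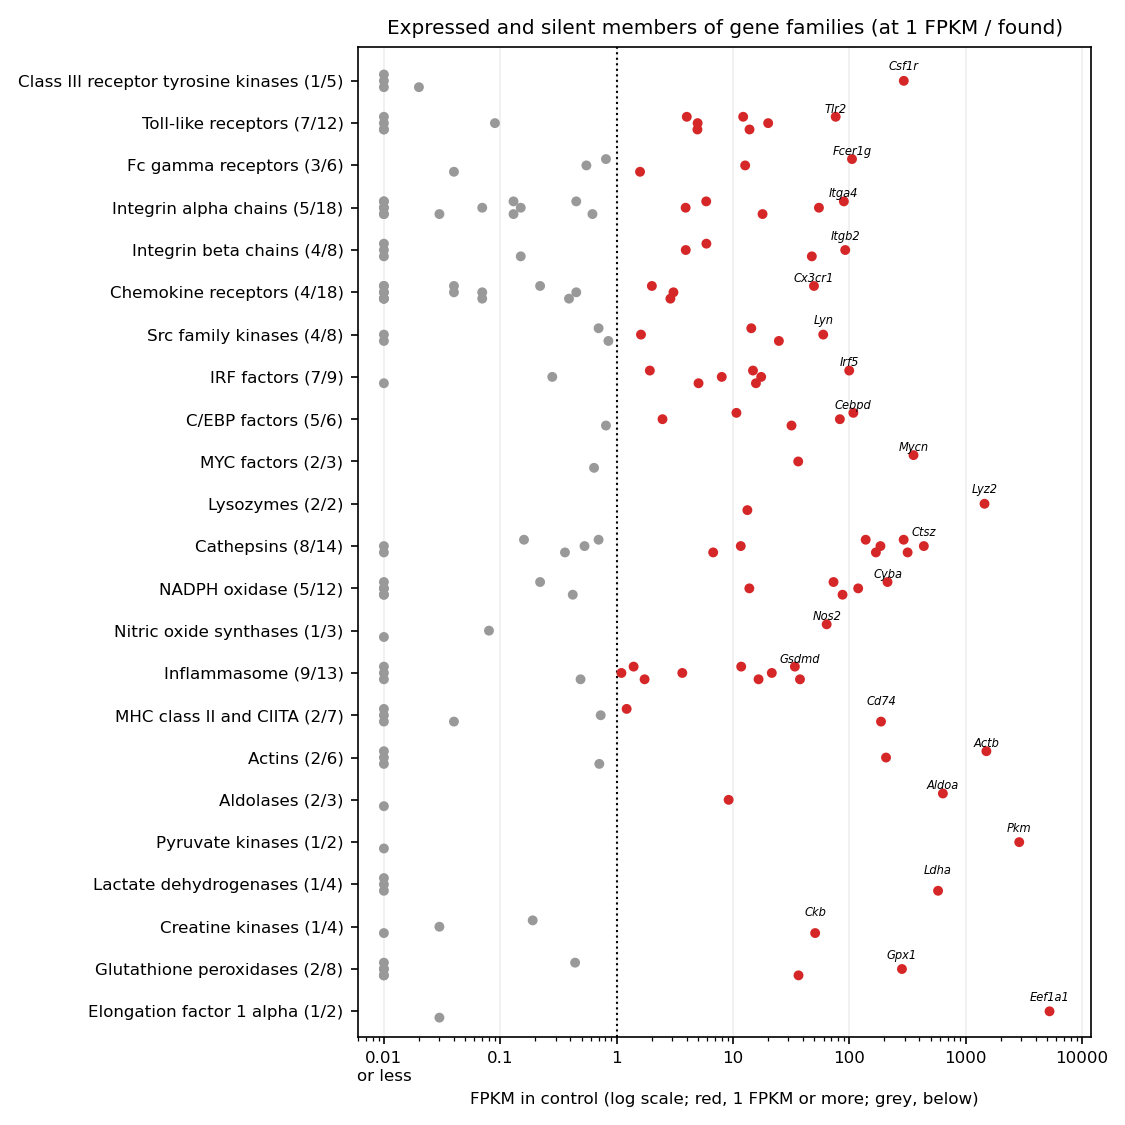
Control FPKM (log scale) of members of 23 gene families, 1 point per gene, with values of 0.01 or less drawn at 0.01, red points at or above 1 FPKM and counts in brackets. Several families, such as the lactate dehydrogenases and the class III receptor tyrosine kinases, have 1 red point and the rest at or near the left edge, while the IRF and C/EBP factors have most members on the right.

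Several housekeeping genes had low levels beside a copy that shares most of its sequence with them at a high level. For each gene, the share of the 50-base words of its longest transcript that occur in a transcript of another gene was computed. It measures sequence held in common, also with a gene that overlaps it in the annotation. Whether reads could be placed was not measured. Gapdh, an abundant enzyme of glycolysis in most cells, stood at 8.23 FPKM in control, 10.18 in HU and 10.55 in HU_GNC. The processed pseudogene Gm13394 stood at 1495.74, 1548.81 and 1510.91 FPKM, and 901 of its 951 words (94.74%) were found in Gapdh transcripts. Ppia stood at 8.61, 9.78 and 9.34 FPKM and Gm10123, all of whose 441 words are in Ppia, at 2146.38, 2056.25 and 2016.48. In both pairs the copy was the higher one in all 3 libraries.

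The 10 pairs described here were chosen after the levels were seen, for a copy at a higher level, so that direction is fixed by the choice. In 9 of them the copy is a pseudogene and in 1, Rps27rt, a protein-coding retrogene, and from 73.47% to 100% of the copy's words were found in the named gene. Among all 181 expressed protein-coding genes with a pseudogene named after them (-ps) in the table, 24 had one at a higher FPKM. Rpl26 stood at 3.65 FPKM against 1507.04 for Gm15772, and Rps2 at 5.91 against 707.87 for Rps2-ps10. Sumo2, for a small protein attached to others, stood at 2.31 FPKM against 353.84 for Gm10241, and the proton pump gene Atp6v0c at 5.66 against 393.37 for Gm15487. The exonic size used for the parents also lowers their FPKM, at 4133 bases for Gapdh and 3508 for Ppia against 1000 and 490 for the copies. How the counting assigned reads that match several genes is not given in the sources used here, so the levels of both members of such a pair are uncertain, and whether the pseudogenes are transcribed was not tested.

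Pairs of this kind were a small part of the expressed genes. Of 9503 protein-coding expressed genes with words to compare, 6325 (66.56%) shared none, and 278 (2.925%) shared at least 50%. In 87 genes that shared at least 10%, the gene with the most shared words was a pseudogene at a higher FPKM, and 23 of these 87 were ribosomal protein genes. Pseudogenes of any kind held 2.0709% of all reads. Of the genes described above, Csf1r, Cd68, Spi1, Cd14, Ccl3 and Tnf shared no word with another gene, although 15.12% of the exonic bases of Csf1r overlap another gene. Lyz2 shared 15.39% of its words, all with Lyz1. Among others, Mif shared 51.11%, S100a4 56.35%, Eef1a1 59.2%, Itgam 72.37% and Ftl1 78.89%, so their levels are less certain.

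**Figure D5:**
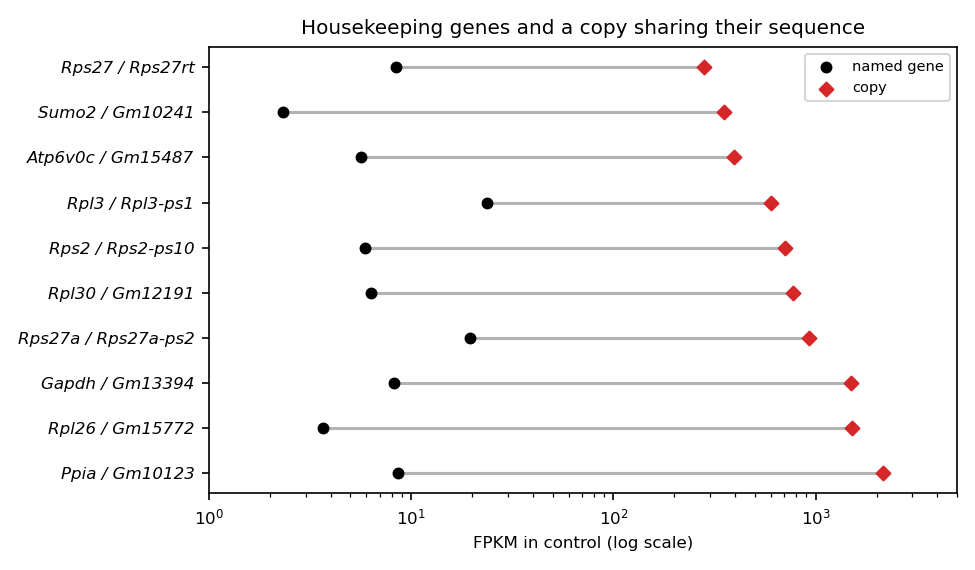
Control FPKM (log scale) of 10 housekeeping genes (black circles) and of a gene that shares most of its sequence with each (red diamonds), joined by a line. In these 10 pairs, chosen for it, the copy lies to the right, from 279.27 FPKM for Rps27rt to 2146.38 for Gm10123.

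The same measure bears on the 13 protein-coding genes of the mitochondrial genome, which are transcribed together as long precursors. The highest was mt-Co1, at 9636.70 FPKM and rank 1 of all genes, followed by mt-Nd1 at 4579.20 and mt-Cytb at 3465.18. Of the 13, 5 (mt-Co2, mt-Co3, mt-Atp6, mt-Nd4l and mt-Nd3) share at least 97.99% of their words with other genes, and these stood at 94.70, 41.78, 37.22, 4.49 and 4.22 FPKM. Of the other 8, mt-Atp8 stood at 9.16 FPKM, with 21.0784% of its bases overlapping another gene, and 7 stood at 621.07 or more. Among these 7, mt-Co1 itself shares 51.14% of its words and mt-Nd4, at 905.46 FPKM, 62.23%, less than the 5 genes named first. The part of shared sequence in the low values of those 5 was not tested.

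Over the whole library, reads were spread over many genes. The 100 highest genes by FPKM held 14.724% of the reads (95% counting interval 14.706 to 14.742) and 1367 genes held 50%. Of the expressed genes 5189 lay between 1 and 10 FPKM, 5046 between 10 and 100, 535 between 100 and 1000, and 31 at or above 1000. The median was 10.7 FPKM. No read was counted for 29336 genes. A level of 1 FPKM takes 14.99 reads per kilobase of exon, so at the median size of 3510 bases it rests on many reads, but 278 expressed genes, 6 of them protein-coding, had fewer than 10 reads. Just inside the threshold lay Zfp157 with 131 reads and the small RNA genes Mir194-1 and Gm22117 with 1 read each. Just outside it lay Creb3l4 with 25 reads, Lpin3 with 55 and Gm15247 with 6.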

How the data were processed

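RNA of 3 RAW 264.7 cultures was sequenced (paired-end), 1 library per group. The authors deposited 1 table of 46078 genes with a raw read count per gene and library, an FPKM value for each, and an exonic size in bases. Per the submitters' processing notes, the build was mm10 and the tools included HISAT2 2.0.1, SAMtools 0.1.18, HTSeq 0.6.1, DESeq, cutadapt and bcl2fastq 2.17.1.14. Their settings, the annotation release, the strand option and the treatment of reads that match several genes are not given in these sources. Each deposited FPKM equals count / (exonic size × summed count), scaled to FPKM, within 0.0051, for 100% of genes. The summed count stands in for mapped reads, so FPKM is relative to reads counted in genes. Since the strand option is unknown, a gene and one overlapping it on the opposite strand cannot be told apart.

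From these files, genes at or above 1 FPKM in control were counted, ranked by unrounded FPKM and described by list (python 3.11.15, numpy 2.4.6, pandas 2.3.3, scipy 1.17.1, biopython 1.88). A read count of 0 has an upper limit of 3 reads. Biotypes, coordinates, exon overlap and shared 50-base words came from GENCODE M21, which held 98.16% of the gene IDs; the deposited size equalled its exon union for 80.18% of genes. A symbol with several IDs was represented by the ID with the most control reads. No test was run, since each group has 1 library. The code was tested on simulated data. Genes named are the 5 markers, the 30 highest protein-coding genes (neither mitochondrial nor ribosomal), the 10 highest other genes, those at the threshold, and the highest, silent and near-threshold members of 100 lists; the copy pairs were added after their values were seen. The members and lists were chosen with earlier results of these data known, and the shared-word measure and the classes by symbol were chosen after seeing the data. Of the listed symbols 4 were not found in the table. Some genes of the lists are not reported here by name. Columns of no known sample numbered 0. The alternatives tried were other thresholds, units, gene sets and ways of ranking.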

Additional observations from a re-analysis of the deposited data

How the results depend on the processing

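The count of expressed genes (10801) ranged from 7722 at a threshold of 5 FPKM to 12412 at 1 TPM. Macrophage markers at or above the threshold ranged from 17 to 21 of 25 over thresholds of 0.5 and 5 FPKM, 1 TPM and 1 CPM, markers of other cell types from 9 to 16 of 123, and listed family members from 283 to 401 of 689. The share of reads in the 100 highest genes, 14.724% by FPKM, was 17.79% ranked by count, 16.083% over protein-coding genes only and 12.562% without the mitochondrially encoded genes, which follows from the gene set in each. Families led by 1 member numbered 35 at 80% of the summed FPKM, 18 at 90%, 41 at 70%, 33 by reads, and 28 of 67 when only groups of true paralogues were kept, an alternative chosen after seeing the data. Ranked by count, Csf1r, a long gene, moved from rank 132 to 34 and Cd68, a short one, from 63 to 138. No paired analysis was possible because each group has 1 library, and for the same reason no replicate could be left out. The depth limits levels near 1 FPKM, where a short gene can pass on 1 read.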

Other observations

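Classes of genes defined by their symbols, chosen after seeing the data, ran from silent to complete in the untreated cells, beside 44.0% of all protein-coding genes. Most sensory receptor genes were silent. Of 1047 olfactory receptor genes 2 were at or above 1 FPKM, Olfr933 at 4.06 and Olfr934 at 2.07, and of 295 vomeronasal receptor, 35 bitter taste receptor, 50 keratin and 19 GABA-A receptor subunit genes 0 were. Of 39 HOX genes, which pattern the body axis, 8 were expressed, led by Hoxb7 at 12.36 and Hoxb6 at 4.01 FPKM. Of 44 collagen genes only Col4a5, a basement membrane chain, passed, at 17.68 FPKM, and of 58 clustered protocadherin genes only Pcdhgc3, at 8.54. Complexes present in every cell were nearly complete, with 77 of 77 mitochondrial ribosomal protein genes, 36 of 36 complex I subunit genes, 12 of 12 EIF3 subunit genes and 38 of 40 proteasome genes expressed. The zinc finger (Zfp) genes lay between, at 238 of 360, led by Zfp36, which destabilises cytokine transcripts, at 162.49 FPKM.

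By chromosome, the share of protein-coding genes expressed ran from 36.8% (chromosomes 7 and 14) to 54.4% (chromosome 12) on the autosomes and was 30.4% on X. On Y it was 2.73%, or 5 of 183 genes. Among these, Eif2s3y stood at 15.97 FPKM, Ddx3y at 11.83, Kdm5d at 2.86 and Uty at 2.51, while Xist, the RNA that coats the inactive X chromosome, had 0 reads.

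Of the telomerase genes, Dkc1 stood at 45.26 FPKM in control. The catalytic subunit Tert stood at 0.99 in control, 1.38 in HU and 1.08 in HU_GNC, and the RNA component Terc at 0, 0.24 and 1.01. The PAX factor gene Pax6, known from eye and brain, stood at 2.76 FPKM in control, 1.62 in HU and 1.65 in HU_GNC, and was the only 1 of 9 PAX genes at or above 1 FPKM. Of noncoding RNAs, Malat1 stood at 89.77 FPKM, Gas5 at 28.71 and Neat1 at 14.48. The highest level of a gene without a protein-coding biotype was that of Gm23935, annotated as a miRNA of 57 bases, at 5175.19 FPKM in control, 3516.24 in HU and 7116.60 in HU_GNC. All of its 50-base words also occur in another gene.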
